A study of Macaca fascicularis with 15 samples.

Results

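The genes described here belong to the machinery that fuses synaptic vesicles with the cell membrane, measured by RNA sequencing in the eye of the cynomolgus monkey. They were chosen by name: gene names in the tables that open as those of the synaptotagmins, syntaxins and their binding proteins, VAMP and SNAP proteins, complexins, synapsins, SV2 proteins, synaptophysin, RIM, RAB3 and UNC13 families, NSF and its adaptors. Of 12995 genes in each table, 74 matched, and SNAP25 and UNC13B were left out, which gave 72 members. Of these, 70 reached a group mean of 1 in some group and were tested; SYT15 and SYT16, whose highest group means were 0.58 and 0.87, were not. The name rule is broad, since it also takes in syntaxins of endosomes and the Golgi apparatus, regulators of RAB3, and RAB30 to RAB39B, which share only the start of the name with RAB3. A list of 41 known vesicle release genes therefore served beside it, of which 29 were members. The other 12, NSF, SYN1, SYN2, SV2A, SYT7, STX3, RIMS1 and UNC13A among them, were not analysed here. The members and this list were chosen with earlier results of these data known. Counts within them are therefore descriptions and give no independent support.

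Tables were analysed for 11 of the 15 samples of the series: 2 of whole eye, 2 of whole retina, 4 of central retina and 3 of peripheral retina, all from wild-type animals. Each sample was made from a single eye, with the tissue kept in an RNA-preserving solution. Biological replicates are stated for eye and retina; for the regional samples no label says whether they came from different animals, so p-values measure no more than how these samples spread, which may be technical. No age, sex, date or batch is given, and no group was treated. Values are the authors' normalized signal, with an unstated scaling; the depth is unknown, and levels are not compared between genes.

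A nerve terminal releases transmitter when a vesicle SNARE protein (VAMP, also called synaptobrevin) zippers with syntaxin and a SNAP-25 protein on the cell membrane. Synaptotagmins on the vesicle sense calcium, complexins hold or speed the last step, RAB3 and RIM proteins dock the vesicle at the active zone, UNC13 proteins prime it, and NSF with its adaptors takes the spent complex apart. In the retina, photoreceptors and bipolar cells release continuously at ribbon synapses, while amacrine cells use conventional synapses. Ganglion cells carry the retina's output along their axons to the brain, where they release transmitter. CPLX3 and CPLX4 are known as the complexins of ribbon synapses, and CPLX1 and CPLX2 as those of conventional ones.

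The libraries labelled whole retina held markers of tissue outside the neural retina, and whether the label or the dissection accounts for this cannot be told apart, which bears on every comparison with them. The summed level of 6 measured pigment epithelium and melanocyte markers was 2143 to 2284 there, close to the 2528 to 2561 of whole eye, against 62.5 to 151.9 in the central libraries and 348.4 to 503.2 in the peripheral ones, with TYR listed at 0 in at least 1 library. The summed level of 4 lens markers was 2593 to 2854 in whole eye, 363.3 to 523.3 in whole retina and at most 4.6 in the regions. That of 4 muscle markers was 902.8 to 959.4 in whole retina against at most 14.47 in the regions. Nearly all of it in whole retina came from ACTA2 (723.11 and 819.6) and DES (179.14 and 139.18). ACTA1 ran opposite, at 0.53 and 0.58 in whole retina against 1.49 to 3.42 in the regions, and MYH2 was at most 0.19 in these libraries. Between the regions, 6 of 7 measured ganglion cell markers were called higher in central retina, where their sum was 1972 to 3807 against 357.4 to 651.3, and 5 of 6 Müller glia markers were called lower, at 1027 to 1336 against 2009 to 2357. Of 5 bipolar markers 1 was called higher, of 7 cone markers 2, of 7 amacrine markers none, and of 8 rod markers 4 were called lower. The part these lists play in the results below was not tested, and in bulk tissue fewer cells of a type and less RNA per cell cannot be told apart.

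Between central and peripheral retina, the members split into those called higher centrally, those not called and 6 called lower centrally. The largest differences toward central retina were those of SYT2, SYN3, VAMP1, SV2C, CPLX2 and CPLX1. limma on log2(value + 1), with Benjamini-Hochberg adjustment over 11933 genes and a threshold of 0.05, called 18 of 70 members higher and 6 lower in central retina. Over all genes tested, 12.5% were called higher and 8.76% lower; among the members it was 25.7% and 8.57%. The libraries of the regions did not overlap in 37 of the 70, against 34.6% of all genes. The median log2 difference of the members was 0.15, against -0.01 over all genes. Within the list of release genes 12 of 29 were called higher and 1 lower, with a median of 0.44. The 41 tested members outside it gave 6 and 5, with a median of 0.05. All 6 of these higher calls were among the 10 other RAB genes, which share only a name start with RAB3. Their median was 0.47, so a shift toward central retina was not particular to the release list.

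**Figure D1:**
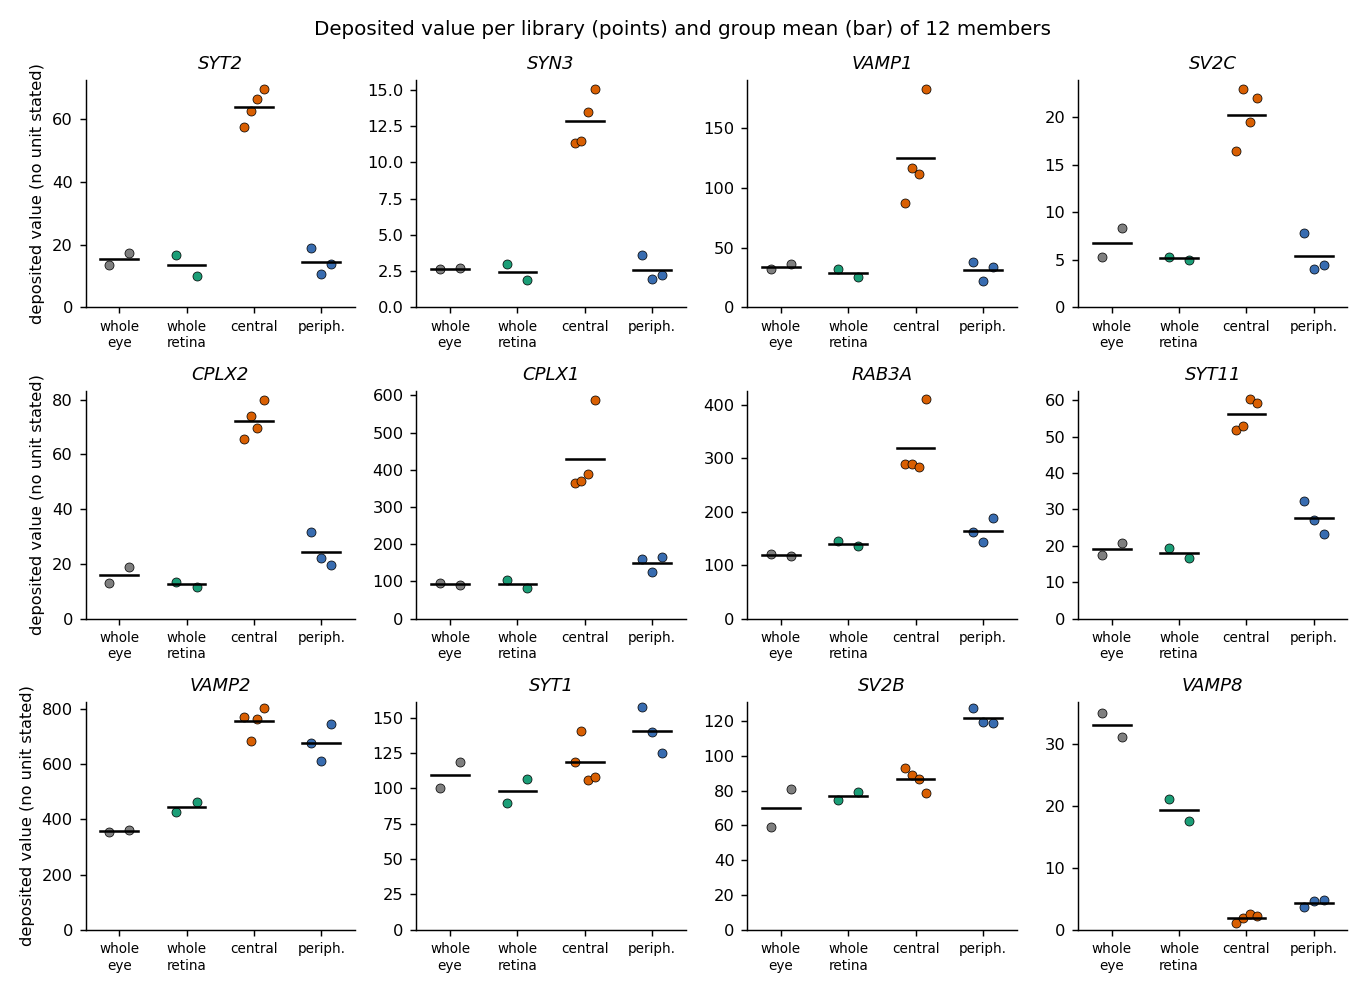
Normalized signal (linear axis from 0) of 12 members in 11 libraries; points are libraries and bars are group means. In SYT2, SYN3, VAMP1, SV2C, CPLX1, CPLX2, RAB3A and SYT11 the 4 central libraries lie above the 3 peripheral ones, in SV2B and VAMP8 below them, and in SYT1 and VAMP2 the regions overlap.

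Among the synaptotagmins, SYT2 was called higher in central retina and SYT1 was not called. SYT2, the fast sensor of several projection neurons and inhibitory terminals, measured 57.52, 62.60, 66.54 and 69.67 in the 4 central libraries and 19.07, 10.62 and 13.90 in the 3 peripheral ones. In whole retina it measured 16.74 and 10.09 and in whole eye 13.64 and 17.51. All central libraries lay above every other library, and the other 3 groups overlapped. Central and peripheral means were 64.1 ± 5.24 (SD, n = 4) and 14.5 ± 4.26 (SD, n = 3), a log2 difference of 2.10 (SE 0.20, limma adjusted p = 9.18e-05). SYT1, the main sensor of fast release in forebrain neurons, overlapped between the regions: 118.91, 140.32, 105.83 and 108.13 in central retina against 157.61, 139.46 and 125.14 in peripheral retina. Its log2 difference was -0.25, with a 95% interval from -0.55 to 0.04, and it was not called (limma adjusted p = 0.204).

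Of the 9 tested synaptotagmins, 3 were called higher and 1 lower. SYT11, which does not bind calcium and is linked to membrane retrieval, measured 51.84 to 60.36 in the central libraries and 23.30 to 32.16 in the peripheral ones, a log2 difference of 1.01 (limma adjusted p = 0.000324). SYT4, found on dense-core and other vesicles, measured 34.61 to 54.68 against 22.15 to 28.04, a log2 difference of 0.69 (limma adjusted p = 0.0131). The regions did not overlap in either gene; the SYT4 call was lost without the third peripheral library (limma adjusted p = 0.0548). SYT17 ran opposite, at 0.93, 0.76, 0.85 and 1.33 in central and 3.32, 3.44 and 2.68 in peripheral retina, with 5.37 to 7.82 in whole eye and whole retina. Its log2 difference was -1.08 (limma adjusted p = 0.000331), on low levels.

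The vesicle SNAREs moved in both directions. VAMP1, the synaptobrevin of many fast and motor terminals, measured 87.52, 116.90, 111.50 and 182.42 in central and 37.95, 22.12 and 33.63 in peripheral retina. The fourth central library was the highest, and the lowest central one stayed above every library of the other groups. The means were 125 ± 40.6 (SD, n = 4) and 31.2 ± 8.18 (SD, n = 3), a log2 difference of 1.94 (limma adjusted p = 0.000278). VAMP2, the main neuronal synaptobrevin, measured 770.55, 683.38, 763.69 and 803.32 against 677.56, 612.27 and 746.68. These overlapped, and the log2 difference of 0.16 had an interval from -0.10 to 0.41 (limma adjusted p = 0.365).

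VAMP8 and VAMP3, which serve secretory granules and recycling endosomes in many non-neuronal cells, were lower in central retina. VAMP8 measured 1.13, 1.85, 2.48 and 2.26 in central, 3.68, 4.60 and 4.82 in peripheral, 21.15 and 17.57 in whole retina and 35.01 and 31.03 in whole eye. No 2 of these groups overlapped. The regional log2 difference was -0.89 (limma adjusted p = 0.00409). VAMP3 measured 11.89 to 17.62 in the central libraries and 20.66 to 24.48 in the peripheral ones, a log2 difference of -0.68 (limma adjusted p = 0.00661). The pigment epithelium and Müller glia marker sums given above were also lower in central retina. Of the rod markers 4 of 8 were called lower there, and of the ganglion cell markers 6 of 7 were called higher. Whether any of these lists bears on VAMP8 and VAMP3 was not tested.

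Among the vesicle membrane proteins, the SV2 paralogs parted. SV2 proteins are transporter-like glycoproteins carried by synaptic vesicles. SV2C measured 16.44, 23.00, 19.52 and 22.00 in central and 7.81, 4.08 and 4.44 in peripheral retina, a log2 difference of 1.76 (SE 0.21, limma adjusted p = 0.000225). SV2B, known from photoreceptor and other glutamatergic terminals, measured 93.19, 89.02, 86.54 and 78.44 against 127.57, 119.59 and 118.68. Neither gene's regions overlapped, and SV2B was the 1 gene of the release list called lower centrally. Its log2 difference was -0.49 (limma adjusted p = 0.0149), and the call was lost without the first (adjusted p = 0.0605) or the second peripheral library (adjusted p = 0.0512). SYP, synaptophysin, the abundant vesicle protein used as a synapse stain, measured 134.61 to 154.80 and 95.44 to 112.31; the groups did not overlap, but its log2 difference of 0.45 was not called (limma adjusted p = 0.102).

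SYN3 was the only synapsin among the members. Synapsins tether vesicles to each other in the reserve pool, but ribbon terminals lack them. It measured 11.30, 11.47, 13.45 and 15.02 in central retina, against 3.58, 1.96 and 2.25 in peripheral retina, 2.96 and 1.88 in whole retina and 2.63 and 2.71 in whole eye. The central libraries lay above all the others, which overlapped among themselves. The central mean was 4.93 times the peripheral one, with a log2 difference of 1.96 (SE 0.18, limma adjusted p = 6.44e-05).

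Of the 4 complexins, CPLX1 and CPLX2 were called higher in central retina, and CPLX3 and CPLX4 were not called; the difference between the pairs was not tested. CPLX1 measured 363.61, 371.08, 389.73 and 587.13 in central and 160.60, 124.35 and 164.69 in peripheral retina, with 81.94 to 104.54 in whole retina and whole eye. CPLX2 measured 65.48, 73.99, 69.61 and 79.82 against 31.52, 22.20 and 19.57, and 11.55 to 18.92 elsewhere. Both were above every other library in each central library. Their log2 differences were 1.49 (limma adjusted p = 0.000261) and 1.55 (limma adjusted p = 0.00016), and without the fourth central library that of CPLX1 was 1.33.

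CPLX3, a ribbon synapse complexin, measured 213.75 to 265.15 in the central libraries and 178.28 to 198.56 in the peripheral ones. These did not overlap, but the log2 difference of 0.34 lay just outside the threshold (limma adjusted p = 0.0507). CPLX4, the other ribbon synapse complexin, measured 78.30, 109.82, 88.25 and 57.08 against 131.41, 112.64 and 121.65, with a log2 difference of -0.58 (limma adjusted p = 0.118). Each complexin shares the start of its name with CP, ceruloplasmin, and a slip between such rows cannot be settled from the tables. CP measured 6.17 to 12.21 in central, 16.25 to 34.63 in peripheral and 91.37 and 125.36 in whole retina. CPLX2 lay above CP in every central library and near it in the peripheral ones.

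At the active zone and among the RAB3 GTPases, 4 of 8 members were called higher. RAB3A, the main vesicle GTPase of brain synapses, measured 290.23, 289.11, 283.27 and 411.55 in central and 162.29, 144.15 and 187.41 in peripheral retina. The groups did not overlap. The log2 difference was 0.94 (SE 0.15, limma adjusted p = 0.00126), or 0.81 without the fourth central library. RAB3D, found on secretory granules, measured 4.37 to 6.86 in the central libraries and 2.01 to 2.29 in the peripheral ones, the lowest group, since whole retina and whole eye gave 4.88 to 5.61. Its log2 difference was 1.05 (limma adjusted p = 0.000445). RAB3B and RAB3C, at group means under 6, were not called.

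RIMS4 and RIMS3 are the short RIM proteins, which lack the RAB3-binding part of the longer ones. RIMS4 measured 13.53, 14.61, 15.14 and 15.08 in central retina, and 7.74, 6.54 and 6.48 in peripheral retina. Its log2 difference was 0.98 (limma adjusted p = 0.000379). RIMS3 gave 6.60 to 11.66 against 4.65 to 6.31, a log2 difference of 0.68 (limma adjusted p = 0.017), and was no longer called without the second (adjusted p = 0.0811) or the third peripheral library (adjusted p = 0.0545). UNC13C, a priming factor, measured 6.14 ± 1.20 (SD, n = 4) and 4.03 ± 1.32 (SD, n = 3) and was not called (limma adjusted p = 0.0696).

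Several members that act in SNARE assembly and disassembly were not called between the regions. STX1A, a plasma membrane syntaxin, measured 8.24 to 11.45 against 6.38 to 8.22 and was not called (limma adjusted p = 0.0625). The 3 adaptors of NSF gave log2 differences of 0.36 for NAPA (limma adjusted p = 0.0507), 0.32 for NAPG and 0.16 for NAPB, and none was called. Nor was any of the 9 endosomal and Golgi syntaxins or of the 6 syntaxin binding proteins. SNAP91, a clathrin adaptor that recovers vesicle membrane and despite its name is no SNARE, gave 81.5 ± 5.27 (SD, n = 4) and 74.8 ± 4.78 (SD, n = 3).

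Of the 10 other RAB genes, 6 were called higher and 1 lower. RAB37, a GTPase of secretory granules, measured 14.75, 14.22, 12.18 and 12.73 in central and 6.79, 4.47 and 4.48 in peripheral retina (log2 difference 1.23, limma adjusted p = 0.00398). RAB33A, RAB35, RAB31, RAB39 and RAB39B, which the naming rule did not pick and which are named after their values were seen, gave log2 differences of 0.77, 0.65, 0.63, 0.56 and 0.38. All but RAB33A lost the call when a single library was left out: RAB35 without the third peripheral one (limma adjusted p = 0.0569) and RAB31 without the second (adjusted p = 0.076) or the third. RAB39 lost it without any 1 of the peripheral libraries (adjusted p up to 0.112) or the first, the second or the fourth central one, and RAB39B without the second (adjusted p = 0.133) or the third peripheral or the second, the third or the fourth central one. RAB38, which carries cargo to melanosomes with RAB32, was lower in central retina, at 1.48 to 2.35 against 3.27 to 4.16 (log2 difference -0.57, limma adjusted p = 0.0179), and lost the call without the second peripheral library (adjusted p = 0.0913). RAB3IP, an activator of RAB8, was lower by a log2 difference of -0.64 (limma adjusted p = 0.0277), a call lost without the first (adjusted p = 0.111) or second peripheral library or the first, the third or the fourth central one.

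**Figure D2:**
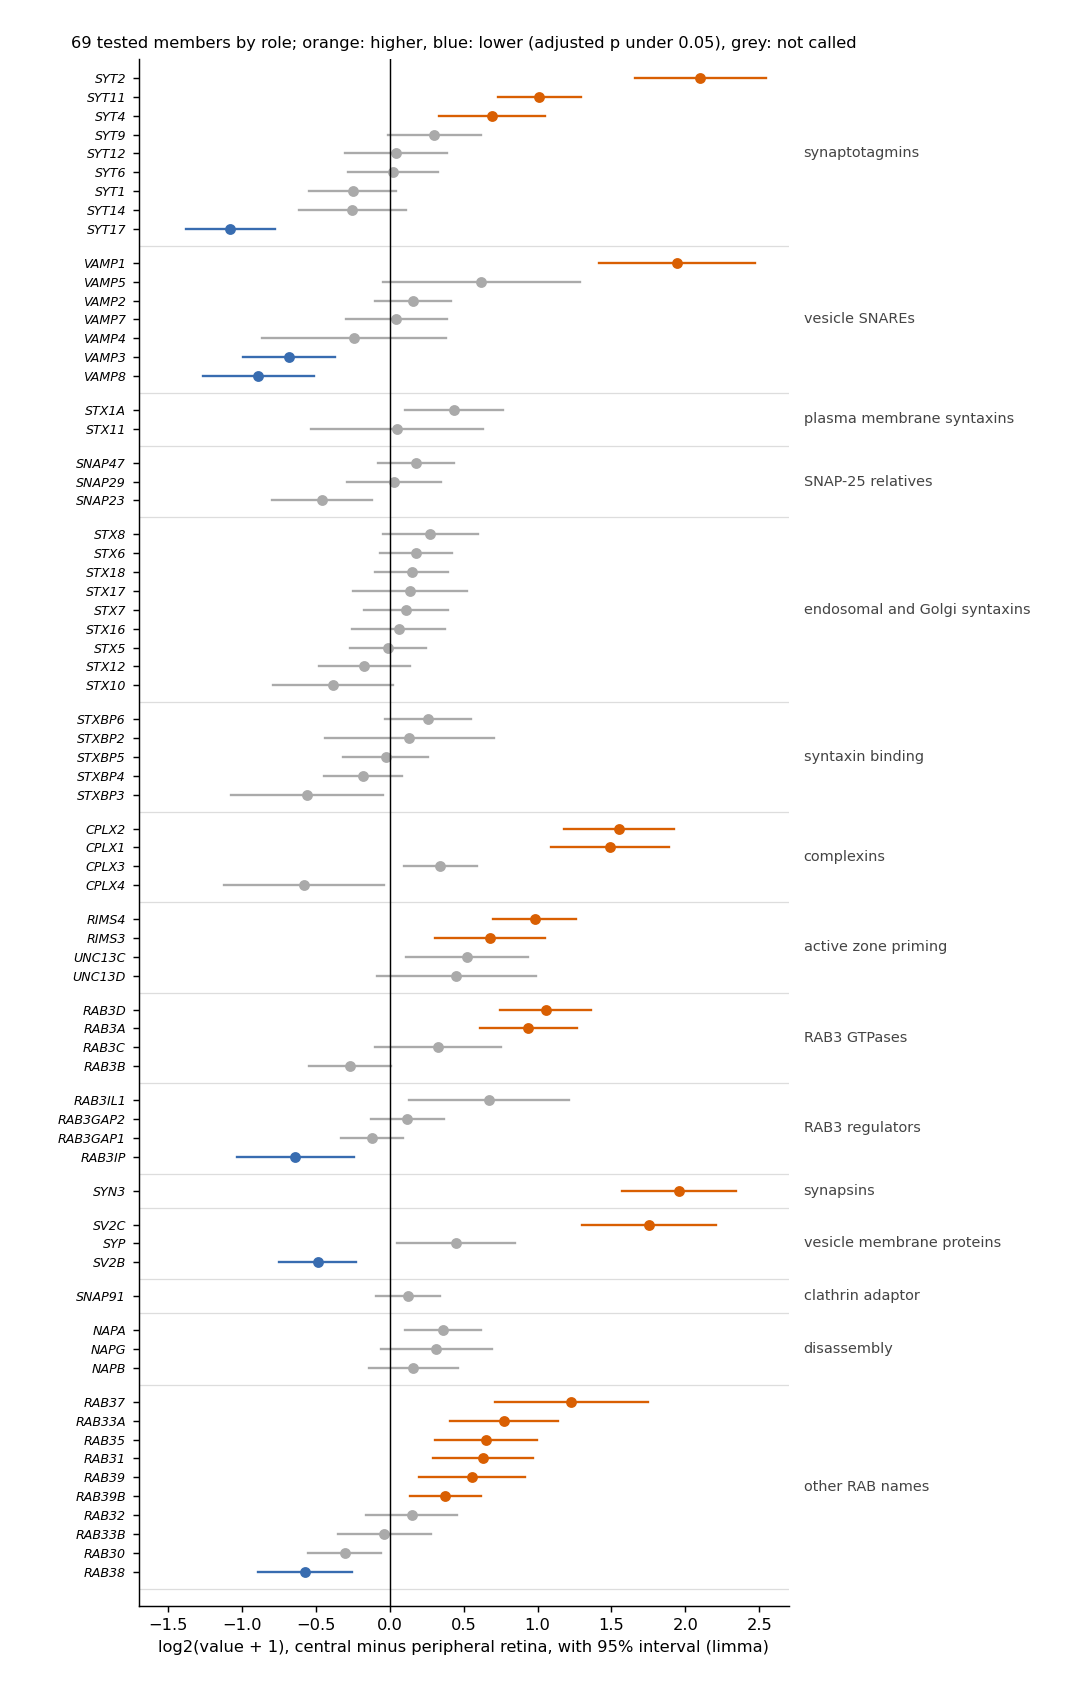
Log2 difference, central minus peripheral retina, on the log2(value + 1) scale for 69 of the 70 tested members grouped by role; lines are 95% intervals, orange marks the 18 called higher, blue the 6 called lower and grey the rest. The intervals of SYT2, SYN3, VAMP1 and SV2C lie farthest to the right, and those of VAMP2 and SYT1 span 0.

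Release pathway genes outside the members, SNAP25 and UNC13B included, were read from a list of 44, of which 33 were tested. Of these 9 were called higher and 1 lower in central retina, 30.3% in all against 21.3% of all genes. SYNGR3, a synaptogyrin of the vesicle membrane, measured 75.6 ± 10.2 (SD, n = 4) and 31.4 ± 2.38 (SD, n = 3; limma adjusted p = 0.000225). CACNA1A, the pore of the P/Q-type calcium channel of conventional terminals, measured 7.73 ± 0.587 and 3.12 ± 0.751 (limma adjusted p = 0.000452). SNAP25, CASK, LIN7A, DNM1, SYNGR1, SLC17A6 and SNCB were the other genes called higher, and UNC13B, a priming factor of ribbon synapses, was the 1 called lower, at 17.4 ± 2.15 against 22.9 ± 2.79 (limma adjusted p = 0.0456).

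Pairs of members with like roles were set against each other as ratios within each library, where the scaling of the library cancels. The pairs were chosen after their values were seen, so no test is given. SYT2 over SYT1 was 0.551 ± 0.101 in central retina (SD, n = 4) and 0.103 ± 0.0236 in peripheral retina (SD, n = 3). SV2C over SV2B was 0.235 ± 0.0452 and 0.0442 ± 0.0148, and VAMP1 over VAMP2 was 0.164 ± 0.0479 and 0.0457 ± 0.0100. These numbers mix the lengths of the genes with their levels if the signal is not scaled by length, so only their change between libraries can be read. CPLX1 over CPLX3 was 1.80 ± 0.381 and 0.802 ± 0.102, and CPLX2 over CPLX4 was 0.924 ± 0.323 and 0.199 ± 0.0395. In all 5 pairs every central library lay above every library of the other 3 groups. The first gene of each pair was already called higher in central retina, so this adds no independent support.

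**Figure D3:**
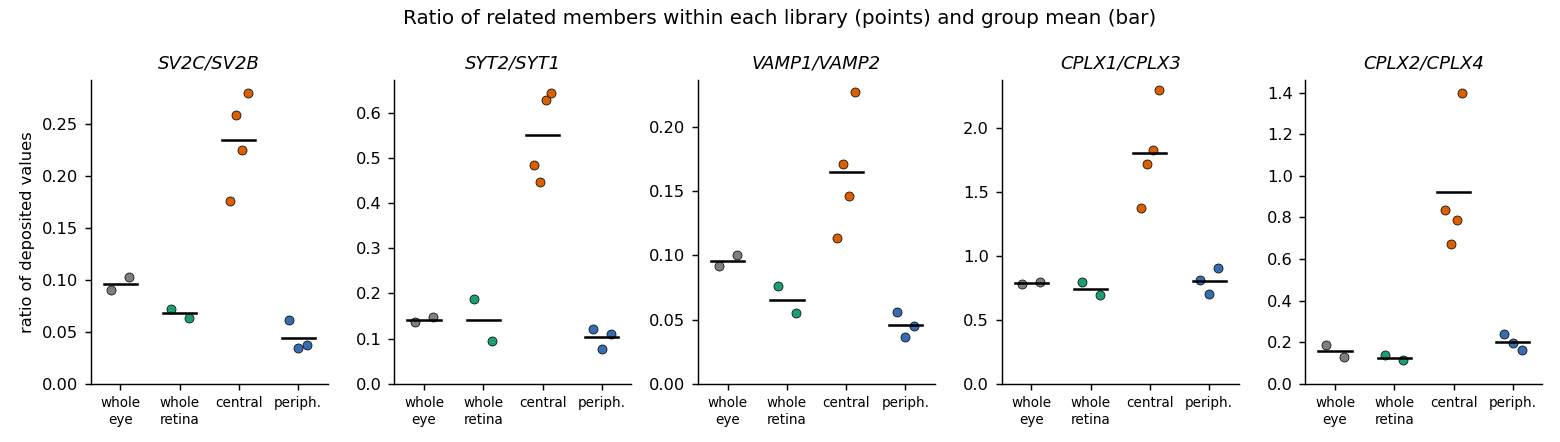
Ratio of the signal of 2 members with like roles in each of 11 libraries (linear axes from 0), for 5 pairs; points are libraries and bars are group means. In each pair, chosen after the values were seen, the 4 central libraries lie above all the others.

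Whole retina was compared with whole eye to ask what isolating the retina does to these genes. No member was called higher or lower by limma, against 0.168% and 2.1% of all genes, or 2.27% in either direction. An unadjusted limma p under 0.05 was found for 8 of the 70. The share of all genes at that level is not given here, so neither this count nor its directions are read as a result about the members. The libraries of the groups did not overlap in 18 members, against 31.6% of all genes. Of the 8 with an unadjusted p under 0.05, STX10, a syntaxin of the Golgi apparatus, was higher in whole retina and the other 7 were lower. VAMP8 measured 21.15 and 17.57 in whole retina and 35.01 and 31.03 in whole eye (log2 difference -0.74, interval -1.24 to -0.25, limma adjusted p = 0.184). VAMP2 measured 428.46 and 461.84 against 355.08 and 360.22, also without overlap (log2 difference 0.31, interval -0.02 to 0.65, limma adjusted p = 0.505). For CPLX1, with means of 93.2 in both groups, the interval of the log2 difference ran from -0.53 to 0.51, and with 2 libraries a group changes inside such intervals were not detectable.

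Each region was also compared with the libraries labelled whole retina. These comparisons share the 2 whole retina libraries, so their values stand side by side and are not independent. In central retina 31 of 70 members were called higher and 13 lower by limma (44.3% and 18.6%), against 18.9% and 29.7% of all genes. In either direction this was 62.9% of the members and 48.7% of all genes, and 51 members against 58.8% of all genes did not overlap. In peripheral retina 15 were called higher and 13 lower (21.4% and 18.6%), against 9.83% and 24.3% of all genes. In either direction this was 40.0% against 34.2%, and 47 members against 57.3% of all genes did not overlap. With quantile normalization the peripheral split became 31 higher and 11 lower. Under that setting 43.6% of all genes were called in either direction. Their split by direction is not given, so neither 31 nor 11 has a like share beside it. The median log2 difference of all genes was then 0.16 in place of -0.08, and in central retina 0.11 in place of -0.10. Within the release list the counts were 23 higher and 1 lower in central and 13 and 2 in peripheral retina; of the 33 other pathway genes, 24 and 19 were called higher and 1 lower each time.

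The members highest in central retina relative to whole retina were CPLX2, with a log2 difference of 2.44 (limma adjusted p = 1.86e-06), SYT2 with 2.21, CPLX1 with 2.17, VAMP1 and SYN3 with 2.02 each, SV2C with 1.77, RAB37 with 1.70, SYT11 with 1.58, RIMS4 with 1.57 and RAB3A with 1.16. In peripheral retina the corresponding values were 0.89 for CPLX2, 0.68 for CPLX1, 0.57 for SYT11 and 0.59 for RIMS4, all called. The calls of CPLX1, RIMS4 and SYT11 were lost without the second whole retina library (limma adjusted p = 0.206, 0.123 and 0.095), and that of CPLX1 also without the first or the third peripheral one. SYT2, SYN3, VAMP1 and SV2C were not called in peripheral retina, where their libraries overlapped those of whole retina; the log2 difference of SYT2 was 0.11, with an interval from -0.42 to 0.64. VAMP2 was called higher in both regions (0.76 and 0.60), a call lost in peripheral retina without the first whole retina library (adjusted p = 0.0519). All 3 NSF adaptors were called higher in central retina, NAPA not without the second whole retina library (adjusted p = 0.13), and NAPB and NAPG in peripheral retina, each lost without 1 whole retina library (adjusted p = 0.0914 and 0.0828). SV2B and SYT1 were called higher in peripheral retina, with log2 differences of 0.66 (limma adjusted p = 0.00406) and 0.52 (limma adjusted p = 0.0276). The SYT1 call was lost without the first whole retina library (adjusted p = 0.172) or the first or second peripheral one. Of the 15 calls of higher level in peripheral retina, 4 were kept whichever library was left out, against 23 of 31 in central retina. The share of all genes so kept was not counted.

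The 13 members called lower in each region included genes known from general secretion and from pigment granules. VAMP8 had log2 differences of -2.82 in central (limma adjusted p = 6.48e-07) and -1.92 in peripheral retina (limma adjusted p = 3.1e-05). RAB32, a melanosome GTPase, measured 25.35 and 22.79 in whole retina, 3.80 to 5.49 in the central libraries and 3.87 to 4.26 in the peripheral ones, with log2 differences of -2.17 and -2.31. STXBP2 and STX11, which serve granule release in blood cells, and SNAP23, the broadly expressed relative of SNAP-25, were called lower in both regions, as were SYT17, VAMP3, VAMP5, RAB3IL1 and RAB38; VAMP5 in central retina lost the call without the first whole retina library (adjusted p = 0.113). RAB38 in peripheral retina lost it without the second whole retina library (adjusted p = 0.0878) and with quantile normalization. STXBP2 gave -1.78 and -1.91, SNAP23 -1.40 and -0.94. The 2 whole retina libraries lay far apart for STXBP2, at 12.92 and 6.14, and for STX11, at 3.39 and 0.71. STX11 was near 0 in the regions, at 0.04 to 0.30 in the central and 0.06 to 0.11 in the peripheral libraries. Marker lists of retinal and other cells also differed from whole retina, in both directions, and their part in the calls of the members was not tested. Against whole retina, all 6 pigment epithelium and melanocyte markers and all 4 lens markers were called lower in both regions, and 4 of 6 Müller glia markers were called lower in central and 1 in peripheral retina. In central retina 7 of 7 ganglion cell, 5 of 7 amacrine and 4 of 7 cone markers were called higher. So were 3 of 5 bipolar and 1 of 8 rod markers there. In peripheral retina 5 of 8 rod, 5 of 7 amacrine, 2 of 5 bipolar and 1 of 7 ganglion cell markers were. In central retina 1 of 7 amacrine and 1 of 7 cone markers were called lower. Of 4 muscle markers, 2 were called lower in each region, and 1 was called higher in central retina.

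**Figure D4:**
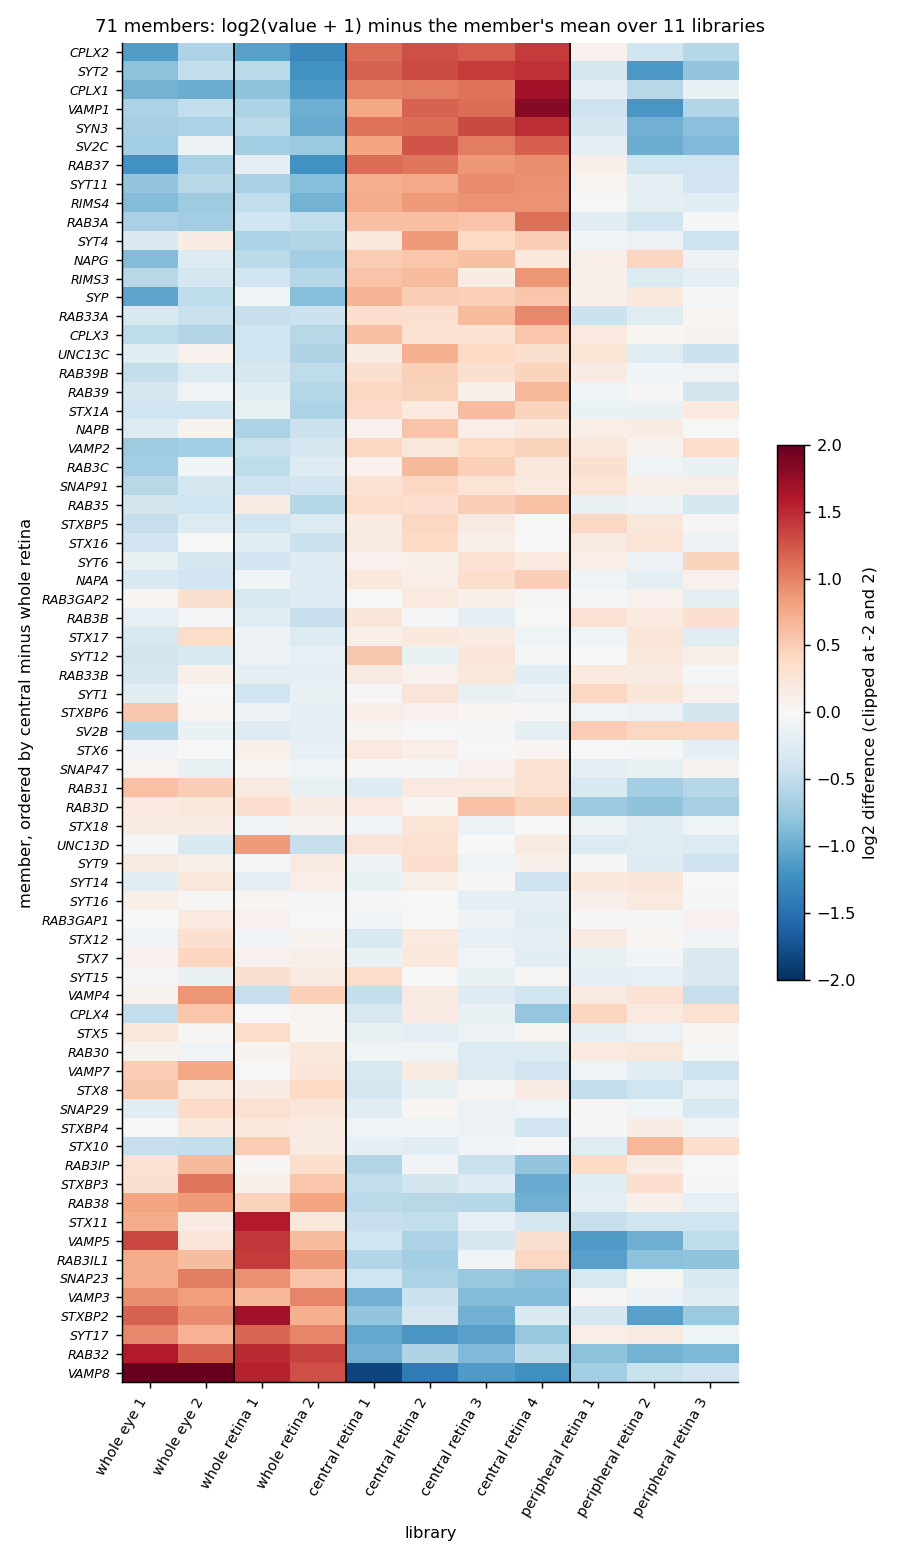
Level of 71 of the 72 members in each of 11 libraries, as log2(value + 1) minus the member's mean over the libraries, with colors capped at 2 on either side; members are ordered by central minus whole retina. The members at the top, CPLX2 and SYT2 among them, are high in the 4 central libraries, and those at the bottom, VAMP8 and RAB32 among them, are high in whole eye and whole retina.

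The median coefficient of variation of the members with a mean of at least 1 was 13.28% in whole eye, 11.26% in whole retina, 13.94% in central and 13.09% in peripheral retina. The highest was 55.75%, 102.0%, 50.83% and 40.9% in the same order, the 102.0% being UNC13D, a priming factor of granule release, and values from 2 libraries are themselves imprecise.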

How the data were processed

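Each of the 11 deposited tables holds 1 normalized signal value per gene for 1 library; per the file headers and labels the authors' scaling is not stated. The submitters' processing notes name GSNAP, an aligner, and HTSeq, a counter, without version. For build and annotation the entry is "not given in the sources used here"; genes carry no coordinates for that reason. Each table has 13083 entries; 26 marked ND, 1 blank and 61 exact duplicates were dropped. Of the members, 69 of 72 match symbols of the RefSeq annotation T2T-MFA8v1.1. Libraries were grouped by labelled tissue; 4 samples were not analysed here.

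limma 3.58.1 (R 4.3.3) was fitted on log2(value + 1), with 11 libraries in 4 groups, a variance trend and a minimum group mean of 1 (11933 genes). Differences are on that scale, which understates the change of low genes. Tests are two-sided, with Benjamini-Hochberg adjustment over all genes of a comparison, with a threshold of 0.05; folds are ratios of group means. The fit was tested on simulated tables with 200 changed genes. Genes named are members of the release list and, per comparison, the 10 largest called differences in each direction; some that met the rule are left out, and 1 member, kept in the counts, is not reported here by name or drawn in the plots of all members. The members, lists and comparisons were chosen with earlier results of these data known. Names of 14 members start like another gene's name; 11 kept the same order against those genes in all libraries, and CPLX1, CPLX2 and CPLX4 against CP did not. Alternatives were quantile normalization, a pseudocount of 0.1, no filter, only members without a shared name start, a replicate block, fitting only the 2 groups compared, each library left out, and, added after seeing the data, a robust variance and a minimum mean of 5. Plots used matplotlib 3.10.9, with pandas 2.3.3 and numpy 2.4.6.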

Additional observations from a re-analysis of the deposited data

Results flagged for a closer look

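In the central retina, 6 of the 72 members had 1 library set apart from the other 3 by more of the group's range than Dixon's 95% limit for 4 samples; chance flags about 1 in 20 groups. The fourth central library was high for CPLX1, at 587.13 against 363.61 to 389.73, and for RAB3A, at 411.55 against 283.27 to 290.23. It was low for RAB38, at 1.48 against 2.23 to 2.35, and for STXBP4, a syntaxin binding protein, at 2.11 against 2.75 to 2.83. The second central library was high for VAMP3, at 17.62 against 11.89 to 12.76, and for VAMP7, a vesicle SNARE of late endosomes and lysosomes, at 11.44 against 7.43 to 8.08. Without the fourth central library CPLX1 and RAB3A stayed called against peripheral retina by limma (adjusted p = 0.000445 and 0.00151), as did RAB38 (adjusted p = 0.0429).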

How the results depend on the processing

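Direction was followed for called members of the release list and for the largest called differences of each comparison. None of these changed direction under any alternative run in which it was tested. For the other called members only the adjusted p was followed, so a change of direction was not tested. Among them, STXBP4, called lower in central against whole retina, lost the call with quantile normalization (limma adjusted p = 0.981). With each library left out in turn, the members called between central and peripheral retina numbered 12 to 22 higher and 3 to 7 lower. The 3 was without the second peripheral library. In these runs 11.1% to 24.2% of all genes were called in either direction, against 21.3% in the main fit, and the 11.1% was also without that library. Between whole retina and whole eye the members numbered 0 to 2 higher and 0 lower, beside 2.05% to 6.54% of all genes. They numbered 25 to 31 higher and 11 to 14 lower in central retina against whole retina, beside 37.9% to 50.1% of all genes. In peripheral retina against whole retina they numbered 8 to 15 and 12 to 13, beside 27.4% to 34.5% of all genes. The 8 was without the second whole retina library, where 28.4% of all genes were called, against 34.2% in the main fit. Of the 15 members called higher in that last comparison, 9 are left among the 58 whose names share no start with another, and quantile normalization called 31. Under the other settings the counts were 13 to 20 higher and 5 to 7 lower between the regions and 24 to 37 and 11 to 13 in central against whole retina. Where these settings were run over all genes, 17.3% to 24.5% and 44.2% to 52.1% of them were called in either direction. Of the 18 and 6 calls between the regions, 12 and 3 were kept in every setting. The share of all genes so kept was not counted, so lost calls are not read as particular to the members. The cause of these shifts was not tested, apart from the smaller number of members or libraries in some.

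The replicate numbers did not pair the regional samples throughout: same-numbered central and peripheral libraries had correlations of deviations of -0.138, -0.061 and 0.357. Differently numbered ones gave 0.363 for the first central with the second peripheral library and 0.347 for the second central with the first peripheral. The fourth central with the third peripheral library gave 0.225, and the rest were negative. Whether the regional samples pair under other numbers was not tested, and the block covers only the labelled numbers. With the number as a replicate block, the counts were 15 higher and 6 lower between the regions, 0 and 0 for whole retina and whole eye, 31 and 13 in central and 15 and 12 in peripheral against whole retina. Of all genes, 17.3%, 1.78%, 45.5% and 35.4% were called in either direction, in the same order. Depth is unknown, so the counting error of low genes such as SYT17 cannot be given, and 2 libraries a group limit what whole retina against whole eye can show.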
